A study of Homo sapiens with 24 samples.

Results

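The genes described here are 46 components of the vesicle traffic between the endoplasmic reticulum (ER) and the Golgi apparatus, taken by name. No measured value set the list, but it was drawn up with earlier results of these data known. The 46 genes comprise 14 of the COPII coat and its ER exit sites and 11 of the COPI coat and its GTPases. The others are 10 cargo and retrieval receptors, 5 p24 (TMED) proteins, and 6 SNAREs and Yip/Yif proteins. All 46 were found among the 60649 features of the count table, and all 46 passed the filter on low counts in both studies.

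The values are RNA-seq read counts from 24 libraries of LNCaP, an established line of human prostate cancer cells of luminal type that responds to androgen. In study 1 the cells received a vector that encodes WDR77-peptide 3 (P3) or the vector alone (EV). In study 2 they received siRNAs against WDR77 (siWDR77) or a non-targeting siRNA (siCtrl). WDR77 is a WD-repeat protein that binds the methyltransferase PRMT5. All 8 groups were kept in androgen-deprived medium from the day after transfection and then held 48 h with the synthetic androgen R1881 at 5 nM or with its solvent, ethanol (vehicle). The groups are P3 with R1881, P3 with vehicle, EV with R1881, EV with vehicle, siWDR77 with R1881, siWDR77 with vehicle, siCtrl with R1881 and siCtrl with vehicle, each with 3 libraries that the labels describe as biological triplicates. The whole series rests on 1 cell line, transient transfection and 1 time point, and a library is named below by its group and its sample number (S).

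Secretory and membrane proteins leave the ER in COPII vesicles. The GTPase SAR1, loaded by PREB, recruits the SEC23-SEC24 inner coat, in which SEC24 binds the cargo, and the SEC13-SEC31 outer coat. COPI vesicles, built from coatomer on ARF GTPases loaded by GBF1, carry escaped ER proteins and receptors back. The luminal cells of the prostate secrete large amounts of protein into the seminal fluid, and androgen maintains that secretory state.

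Depth was 16665915 to 24260446 counts per library, and levels are given as CPM (reads of a gene scaled to a common library size) over library sizes scaled by the TMM method within each study. The 11 luminal markers examined were all detected. Of 17 markers of basal, stromal, endothelial and blood cells 12 were under 1 CPM in every library. Among these 12, COL1A2, CDH5, CD3E and HBB were at 0 in all 24 libraries. Of the 17, COL1A1 had the highest mean in each group except EV with vehicle, where VWF did. As a check of the labels, WDR77 averaged 14.2 CPM with R1881 and 13.2 CPM with vehicle in siWDR77 cells, against 65.7 and 44.9 CPM in siCtrl cells. In study 1 WDR77 averaged 94.7 CPM in P3 cells with R1881 and 56.6 to 60.7 CPM in the other 3 groups. The 3 columns of P3 with R1881 carry the word siRNA after P3 in the deposited table and were matched to their samples by P3, R1881 and the sample number, so every value for P3 with R1881 rests on that match. FKBP5, an established androgen-induced gene, averaged 2478 CPM with R1881 and 73.6 CPM with vehicle in EV cells, and 2403 CPM with R1881 and 36.03 CPM with vehicle in siCtrl cells. The library siCtrl_vehicle S35 stood apart from the other 2 of its group, with a chi-square per degree of freedom of 20.5 and 20.7 against them over all genes.

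R1881 raised nearly the whole apparatus in the control cells. In EV cells 45 of the 46 genes were called higher with R1881 than with vehicle and 0 lower, where 24.9% of all 17772 genes tested were called higher and 26.4% lower. In siCtrl cells 44 of 46 were called higher and 0 lower, where 25.7% of all 17893 genes tested were called higher and 25.4% lower. A gene is called where edgeR's quasi-likelihood test gives a Benjamini-Hochberg adjusted p under 0.05 over all genes of the study. The median log2 fold change of the 46 was 0.63 in EV cells and 0.88 in siCtrl cells, against -0.042 and -0.045 over all genes tested. Increases of at least 2-fold were called for 9 of the 46 in EV cells and 12 in siCtrl cells, against 7.1% and 6.9% of all genes, and 6 genes, SEC24B, SEC24D, COPG1, KDELR2, KDELR3 and LMAN1, passed that size in both. The 3 R1881 libraries lay wholly above the 3 vehicle libraries for 45 of the 46 in EV cells and 44 of the 46 in siCtrl cells, against 27.2% and 28.8% of all genes. Without siCtrl_vehicle S35, 45 of the 46 were called higher in siCtrl cells.

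Summed over the 46 genes, the share of all counts was 1.15 to 1.16% in the 3 EV libraries with R1881, against 0.78 to 0.783% in the 3 with vehicle. In siCtrl cells it was 1.19 to 1.2% with R1881 and 0.751 to 0.766% with vehicle. In bulk RNA, fewer cells that express a gene and less of its RNA per cell cannot be told apart. The summed level of the 17 markers of other cell types was 23.6 to 27.8 CPM with R1881 and 40.7 to 43.9 CPM with vehicle in EV cells, and 22.4 to 25.5 CPM with R1881 and 32.9 to 47.3 CPM with vehicle in siCtrl cells. Their part in the result was not tested. TMM scaling factors were lower with R1881 (0.902 to 0.907) than with vehicle (1.012 to 1.023) in EV cells. With library totals in their place the median over all genes moved to -0.21 in EV cells and -0.305 in siCtrl cells, and 39 and 41 of the 46 were called higher. The members' median stayed 0.67 and 0.92 above that of all genes. Scaling shifts all genes of a library alike, so this gap could hardly move and is no check of the scaling. Of all genes called in EV cells 48.5% were called higher with TMM and 30.9% with library totals.

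**Figure D1:**
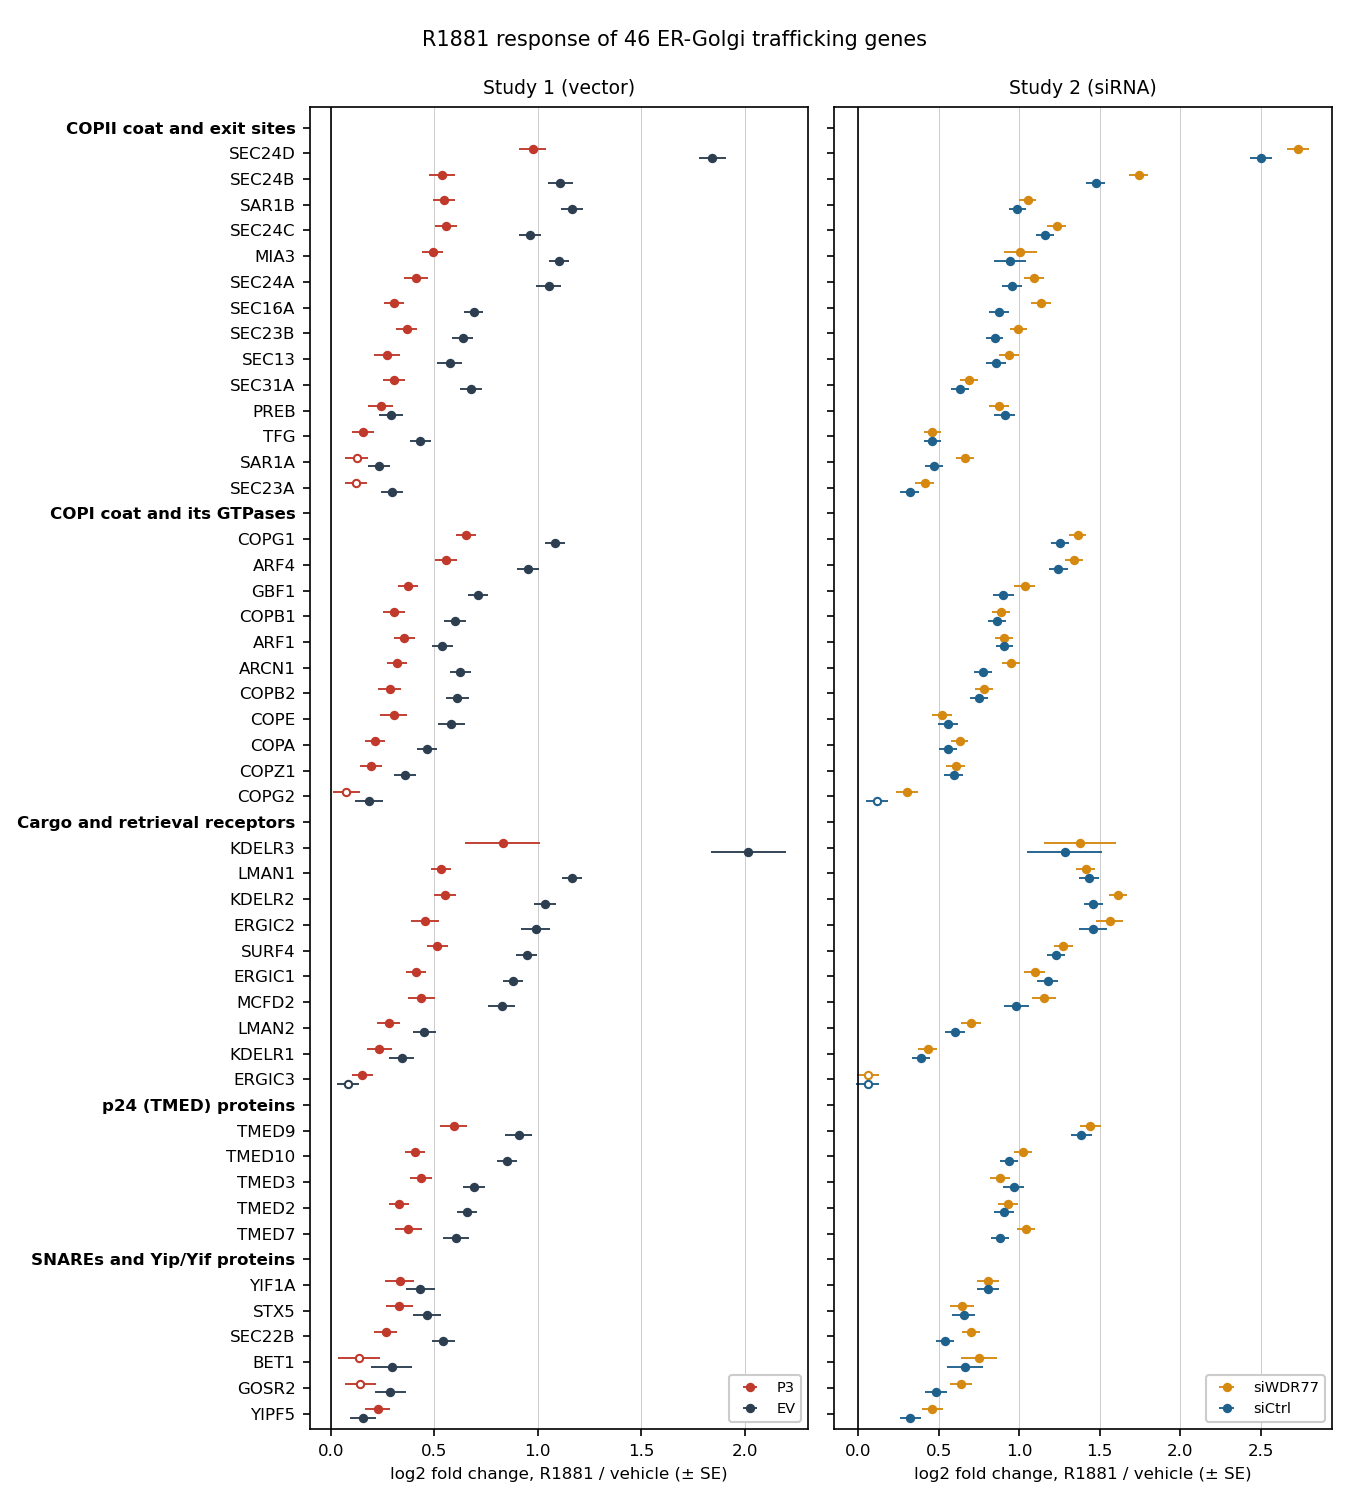
R1881 response of the 46 genes, ordered by role, in P3 and EV cells (left panels) and in siWDR77 and siCtrl cells (right panels). Points are log2 fold changes of R1881 over vehicle with bars of 1 SE from the edgeR fit (3 libraries per group), filled where the adjusted p is under 0.05; SEC24D lies furthest right in siWDR77 and siCtrl cells, and the P3 points lie left of the EV points for 44 of the 46 genes.

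Of the COPII genes, 14 of 14 were called higher with R1881 in both control arms, with medians of 0.68 in EV cells and 0.89 in siCtrl cells (log2). SEC24D, a cargo-binding subunit of the inner coat, held the lowest level per kb of the SEC24 family and moved most. It stood at 129, 122 and 116 CPM in the EV libraries with R1881, against 34.4, 32.9 and 35.1 CPM with vehicle, a log2 fold change of 1.84 ± 0.065 (SE; adjusted p = 6.01e-26). In siCtrl cells it stood at 141, 149 and 145 CPM with R1881, against 25.5, 27.9 and 23.4 CPM with vehicle, a log2 fold change of 2.50 ± 0.070 (adjusted p = 1.36e-19). Every R1881 library lay far above every vehicle library of its arm.

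The other SEC24 subunits moved less. SEC24B stood at 128, 125 and 118 CPM with R1881 and 58.2, 58.4 and 55.4 CPM with vehicle in EV cells, and at 135, 141 and 135 CPM with R1881 and 48, 47.8 and 52.2 CPM with vehicle in siCtrl cells. Its log2 fold changes were 1.11 ± 0.062 (adjusted p = 5.75e-19) and 1.47 ± 0.059 (adjusted p = 1.31e-16). SEC24A, its closest relative in sequence, stood at 129.9, 141 and 129.7 CPM with R1881 and 61.5, 66 and 65.6 CPM with vehicle in EV cells, a log2 fold change of 1.05 ± 0.060 (adjusted p = 7.63e-19). In siCtrl cells SEC24A averaged 124 ± 8.22 CPM with R1881 and 64 ± 3.99 CPM with vehicle (SD, n = 3 each), a log2 fold change of 0.96 ± 0.062 (adjusted p = 2.18e-12). No library of one treatment reached the range of the other for SEC24A or SEC24B. SEC24C, the relative of SEC24D, averaged 221 ± 3.93 CPM with R1881 and 113 ± 3.28 CPM with vehicle in EV cells, with log2 fold changes of 0.96 ± 0.052 there (adjusted p = 1.12e-19) and 1.16 ± 0.058 in siCtrl cells (adjusted p = 1.35e-14). Of the exon bases of SEC24C 42.9% overlap AC022400.8 on the opposite strand, and the strand setting of the counting is not given in the sources used here.

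SEC23A and SEC23B encode interchangeable GTPase-activating subunits of the inner coat. SEC23B stood at 357, 347 and 337 CPM with R1881 and 223, 226 and 219.6 CPM with vehicle in EV cells, and at 349, 353 and 329 CPM with R1881 and 188, 194 and 191 CPM with vehicle in siCtrl cells. Its log2 fold changes were 0.64 ± 0.051 (adjusted p = 4.32e-14) and 0.85 ± 0.053 (adjusted p = 8.06e-13). SEC23A stood at 173, 181 and 174 CPM with R1881 and 137, 143 and 151 CPM with vehicle in EV cells, and its log2 fold changes were 0.30 ± 0.053 in EV cells (adjusted p = 7.71e-06) and 0.32 ± 0.057 in siCtrl cells (adjusted p = 4.39e-05). The groups did not overlap for either gene, and SEC23A lost its call in siCtrl cells under library totals.

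SAR1A and SAR1B encode the GTPase that starts the coat, and SAR1B is the form needed for chylomicron export in the gut. SAR1B stood at 273, 275 and 262 CPM with R1881 and 123, 125 and 113 CPM with vehicle in EV cells, a log2 fold change of 1.17 ± 0.052 (adjusted p = 2.98e-22), and it changed by 0.99 ± 0.054 in siCtrl cells (adjusted p = 7.02e-14). SAR1A stood at 158, 144 and 143 CPM with R1881 and 131, 125 and 124 CPM with vehicle in EV cells, with log2 fold changes of 0.23 ± 0.055 (adjusted p = 0.000416) and, in siCtrl cells, 0.47 ± 0.056 (adjusted p = 1e-07). SAR1B and SEC24A lie head to head on chromosome 5 and share 3.51% of the exon bases of SAR1B. The call of SAR1A in EV cells was lost under library totals.

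MIA3 (TANGO1), which loads bulky cargo such as procollagen at exit sites, averaged 713 ± 29.5 CPM with R1881 and 332 ± 15.5 CPM with vehicle in EV cells, a log2 fold change of 1.10 ± 0.050 (adjusted p = 4.15e-22); in siCtrl cells it was 0.94 ± 0.10 (adjusted p = 3.34e-06). The outer coat subunits SEC13 and SEC31A averaged 117 ± 9.54 and 279 ± 4.62 CPM in EV cells with R1881, against 78.6 ± 2.53 and 174 ± 4.39 CPM with vehicle. The exit-site scaffold SEC16A averaged 399.6 ± 7.34 CPM with R1881 and 248 ± 4.79 CPM with vehicle. TFG, which organises exit sites, averaged 194 ± 2.28 CPM with R1881 and 143 ± 6.59 CPM with vehicle. PREB, the exchange factor of SAR1, averaged 122 ± 5.22 CPM with R1881 and 99.6 ± 4.5 CPM with vehicle in EV cells, and 145 ± 3.93 CPM with R1881 and 77.2 ± 1.41 CPM with vehicle in siCtrl cells. The log2 fold changes of these 5 genes in EV cells were 0.57 for SEC13, 0.68 for SEC31A, 0.69 for SEC16A, 0.43 for TFG and 0.29 for PREB, all called, and the call of PREB in EV cells was lost under library totals.

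**Figure D2:**
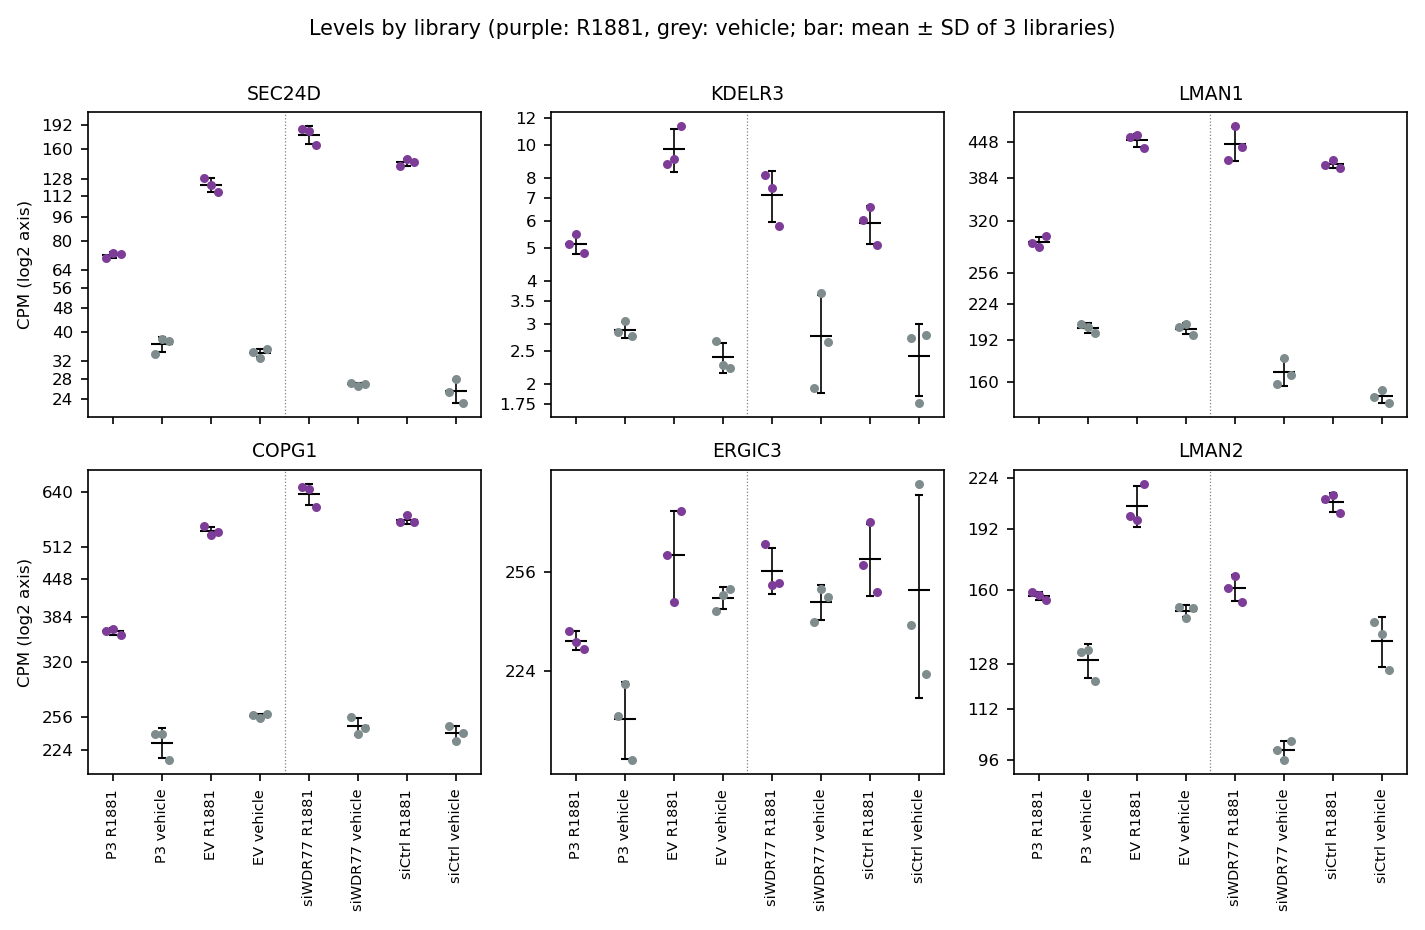
Level of SEC24D, KDELR3, LMAN1, COPG1, ERGIC3 and LMAN2 in each of the 24 libraries, in CPM on a log2 axis, for the 8 groups with R1881 left of vehicle in each arm; bars are mean ± SD of 3 libraries. SEC24D, LMAN1 and COPG1 are higher with R1881 in all 4 arms, ERGIC3 moves little in all 4 arms, and LMAN2 is lower in siWDR77 than in siCtrl cells with either treatment.

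Of the COPI genes, 11 of 11 were called higher in EV cells and 10 of 11 in siCtrl cells, with medians of 0.60 and 0.78 (log2). COPG1, a gamma subunit of the coatomer, stood at 557, 538 and 543 CPM with R1881 and 259, 255 and 259 CPM with vehicle in EV cells, and at 566, 583 and 565 CPM with R1881 and 247, 232 and 239.9 CPM with vehicle in siCtrl cells. Its log2 fold changes were 1.08 ± 0.049 (adjusted p = 4.57e-22) and 1.25 ± 0.055 (adjusted p = 7.6e-16), and R1881 and vehicle libraries lay far apart in both arms. COPG2, the alternative gamma subunit, was called in EV cells and not in siCtrl cells. It stood at 71.8, 72.4 and 70.5 CPM with R1881 and 59.4, 61.7 and 67.9 CPM with vehicle in EV cells, a log2 fold change of 0.19 ± 0.066 (adjusted p = 0.017). That call was lost without EV_vehicle S1 (log2 fold change 0.14, adjusted p = 0.119), without EV_vehicle S15 (0.17, adjusted p = 0.0605) and under library totals (0.016, adjusted p = 0.85). In siCtrl cells COPG2 stood at 69.2, 72.3 and 65.5 CPM with R1881 and 62.8, 62.4 and 65.7 CPM with vehicle, groups that overlapped, with a log2 fold change of 0.12 ± 0.067 (adjusted p = 0.147). Of its exon bases 11.3% overlap other genes, among them MEST on the opposite strand.

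ARF4 stood at 421, 401 and 407 CPM with R1881 and 212, 211 and 212 CPM with vehicle in EV cells, and its log2 fold changes were 0.95 ± 0.053 in EV cells (adjusted p = 3.77e-19) and 1.24 ± 0.057 in siCtrl cells (adjusted p = 2.13e-15). ARF1, the main GTPase of COPI recruitment, had the highest level per kb of all 46 genes, 179 CPM per kb of exon in EV cells with vehicle. It averaged 852 ± 21 CPM with R1881 and 586 ± 4.39 CPM with vehicle there, a log2 fold change of 0.54, and changed by 0.91 in siCtrl cells. GBF1, the exchange factor of both GTPases, averaged 323 ± 7.67 CPM with R1881 and 197 ± 5.8 CPM with vehicle in EV cells. The remaining coatomer subunits were also higher. In EV cells with R1881, COPA averaged 331 ± 7.0, COPB1 277 ± 18, COPB2 195 ± 3.23, COPE 171 ± 18.1, COPZ1 247 ± 8.54 and ARCN1 367 ± 2.32 CPM. With vehicle COPA averaged 239.9 ± 6.42, COPB1 183 ± 3.19, COPB2 128 ± 8.14, COPE 114 ± 2.47, COPZ1 193 ± 5.93 and ARCN1 238 ± 4.52 CPM. All 6 were called higher in both control arms, with log2 fold changes in EV cells of 0.47 for COPA, 0.60 for COPB1, 0.61 for COPB2, 0.58 for COPE, 0.36 for COPZ1 and 0.63 for ARCN1.

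Of the cargo and retrieval receptors, 9 of 10 were called higher in both control arms, and their medians, 0.91 in EV cells and 1.20 in siCtrl cells (log2), were the highest of the 5 roles. The KDEL receptors return escaped ER chaperones. KDELR3 had the lowest level per kb of the 46 genes in EV cells with vehicle, 1.24 CPM per kb, and the largest log2 fold change in EV cells, 2.02 ± 0.18 (adjusted p = 1.02e-12). It stood at 8.76, 9.1 and 11.3 CPM with R1881 and 2.68, 2.28 and 2.23 CPM with vehicle in EV cells, and at 6.02, 6.57 and 5.08 CPM with R1881 and 2.73, 1.76 and 2.78 CPM with vehicle in siCtrl cells. R1881 libraries lay above vehicle libraries in both arms, and the log2 fold change in siCtrl cells was 1.28 ± 0.23 (adjusted p = 4.82e-05). KDELR2 stood at 399.7, 421 and 411 CPM with R1881 and 194, 201 and 206 CPM with vehicle in EV cells, with log2 fold changes of 1.04 ± 0.054 in EV cells (adjusted p = 3.92e-20) and 1.46 ± 0.058 in siCtrl cells (adjusted p = 1.01e-16). KDELR2 shares 9.42% of its exon bases with DAGLB on the same strand. KDELR1, close to KDELR2 in level per kb with vehicle (49.3 and 50.2 CPM per kb in EV cells), stood at 136, 136 and 152 CPM with R1881 and 111, 111 and 112 CPM with vehicle in EV cells. Its log2 fold changes were 0.34 ± 0.059 in EV cells (adjusted p = 3.86e-06) and 0.39 ± 0.057 in siCtrl cells (adjusted p = 3.07e-06), the second lost under library totals.

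LMAN1 (ERGIC-53) is a lectin that ferries glycoproteins, among them blood coagulation factors, out of the ER with MCFD2. It stood at 457, 461 and 437 CPM with R1881 and 203, 206 and 196 CPM with vehicle in EV cells, and at 406, 414 and 401 CPM with R1881 and 150.4, 155 and 147 CPM with vehicle in siCtrl cells. Its log2 fold changes were 1.16 ± 0.049 (adjusted p = 2.35e-23) and 1.43 ± 0.060 (adjusted p = 3.96e-16). MCFD2 averaged 112 ± 7.87 CPM with R1881 and 63.4 ± 3.36 CPM with vehicle in EV cells, a log2 fold change of 0.83, and 0.98 in siCtrl cells. The lectin LMAN2 averaged 206 ± 12.5 CPM with R1881 and 150.2 ± 2.83 CPM with vehicle in EV cells, a log2 fold change of 0.45. SURF4, a receptor for soluble cargo, stood at 536, 529 and 546 CPM with R1881 and 278, 269 and 289.6 CPM with vehicle in EV cells, with log2 fold changes of 0.95 there and 1.23 ± 0.057 in siCtrl cells (adjusted p = 2.57e-15).

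ERGIC1, ERGIC2 and ERGIC3 cycle between the ER and the Golgi as cargo receptors, and they split. ERGIC2 stood at 90.8, 82.2 and 85.3 CPM with R1881 and 43.4, 44.8 and 41.9 CPM with vehicle in EV cells, with log2 fold changes of 0.99 ± 0.069 in EV cells (adjusted p = 5.33e-16) and 1.46 ± 0.084 in siCtrl cells (adjusted p = 5.64e-13). ERGIC1 averaged 1124 ± 37.6 CPM with R1881 and 609.6 ± 5.38 CPM with vehicle in EV cells, with log2 fold changes of 0.88 ± 0.048 in EV cells (adjusted p = 2.73e-19) and 1.18 ± 0.066 in siCtrl cells (adjusted p = 1e-13). ERGIC3 stood at 262, 246 and 278 CPM with R1881 and 243, 248 and 250.1 CPM with vehicle in EV cells, and at 258, 274 and 249 CPM with R1881 and 238, 288 and 223 CPM with vehicle in siCtrl cells. Its groups overlapped in both arms, and its log2 fold changes of 0.083 ± 0.052 (adjusted p = 0.184) and 0.059 ± 0.071 (adjusted p = 0.509) were not called. Under library totals ERGIC3 was called lower with R1881 in siCtrl and siWDR77 cells.

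The p24 proteins, which package cargo into both coats and sort GPI-anchored proteins, were called higher in 5 of 5 cases in both control arms. TMED9 stood at 235, 197 and 243 CPM with R1881 and 122, 117 and 121 CPM with vehicle in EV cells, and at 266, 270.4 and 251 CPM with R1881 and 109, 94.7 and 97.4 CPM with vehicle in siCtrl cells. Its log2 fold changes, 0.91 ± 0.064 (adjusted p = 1.43e-14) and 1.39 ± 0.064 (adjusted p = 2.62e-15), were the largest of the 5. TMED10 averaged 583 ± 14.7 CPM with R1881 and 323 ± 12.2 CPM with vehicle in EV cells, TMED2 425 ± 6.21 CPM with R1881 and 269 ± 10.7 CPM with vehicle, TMED3 298 ± 17.7 CPM with R1881 and 184 ± 2.89 CPM with vehicle, and TMED7 182 ± 14.9 CPM with R1881 and 119 ± 5.69 CPM with vehicle. Their log2 fold changes in EV cells were 0.85 for TMED10 (adjusted p = 6.08e-19), 0.66 for TMED2 (4.31e-15), 0.69 for TMED3 (6.99e-15) and 0.61 for TMED7 (7.26e-10). In siCtrl cells they were 0.94 for TMED10 (adjusted p = 2.54e-13), 0.91 for TMED2 (7.41e-12), 0.97 for TMED3 (3.92e-12) and 0.88 for TMED7 (2.61e-12). Of the exon bases of TMED7 24% overlap other genes, among them the read-through gene TMED7-TICAM2.

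The SNAREs and Yip/Yif proteins moved least. All 6 were called higher in both control arms, with medians of 0.36 in EV cells and 0.60 in siCtrl cells (log2). SEC22B, a SNARE of ER-derived vesicles, averaged 170.2 ± 6.7 CPM with R1881 and 117 ± 3.74 CPM with vehicle in EV cells, and the Golgi SNARE STX5 averaged 77.1 ± 2.75 CPM with R1881 and 55.9 ± 2.42 CPM with vehicle. Their partner BET1 averaged 26 ± 1.9 CPM with R1881 and 21.2 ± 2.33 CPM with vehicle, and GOSR2 averaged 59.1 ± 1.24 CPM with R1881 and 48.4 ± 6.23 CPM with vehicle. The transport proteins YIF1A and YIPF5 bind each other. YIF1A averaged 104 ± 10.1 CPM with R1881 and 76.8 ± 3.84 CPM with vehicle, and YIPF5 averaged 70.2 ± 0.543 CPM with R1881 and 63 ± 2.37 CPM with vehicle. The log2 fold changes in EV cells were 0.54 for SEC22B, 0.46 for STX5, 0.29 for BET1, 0.29 for GOSR2, 0.43 for YIF1A and 0.16 for YIPF5. In siCtrl cells they were 0.54 for SEC22B, 0.65 for STX5, 0.66 for BET1, 0.49 for GOSR2, 0.80 for YIF1A and 0.32 for YIPF5. In EV cells the call of BET1 was lost without EV_vehicle S1, EV_vehicle S29 or EV_R1881 S16 (adjusted p of 0.0621 to 0.086), and that of YIPF5 without EV_vehicle S15, EV_vehicle S29, EV_R1881 S16 or EV_R1881 S30 (adjusted p of 0.0506 to 0.146). Under library totals BET1, GOSR2 and YIPF5 lost their calls in EV cells, where YIPF5 turned to -0.0128 (adjusted p = 0.872), and YIPF5 lost its call in siCtrl cells.

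The promoter of KDELR3, whose RNA rose most in EV cells, is shown with that of LMAN1, another of the genes with the largest increases, as the 250 bases before the start in the RefSeq table (GRCh38.p14), read in the direction of the gene. Capitals mark matches to 2 motifs, UPRE (TGACGTGG), an element of the unfolded protein response known to bind XBP1, and GASE (ACGTGGC), an element of the Golgi stress response known to bind TFE3. The motifs share the letters ACGTGG. KDELR3 holds both on the reverse strand, and LMAN1 holds neither.
KDELR3, chr22:38467846-38468095, plus strand: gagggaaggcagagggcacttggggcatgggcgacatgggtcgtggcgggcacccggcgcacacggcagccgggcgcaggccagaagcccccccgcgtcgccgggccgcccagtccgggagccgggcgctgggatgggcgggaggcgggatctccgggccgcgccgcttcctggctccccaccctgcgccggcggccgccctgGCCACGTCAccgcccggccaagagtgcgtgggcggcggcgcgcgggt
LMAN1, chr18:59359266-59359515, minus strand: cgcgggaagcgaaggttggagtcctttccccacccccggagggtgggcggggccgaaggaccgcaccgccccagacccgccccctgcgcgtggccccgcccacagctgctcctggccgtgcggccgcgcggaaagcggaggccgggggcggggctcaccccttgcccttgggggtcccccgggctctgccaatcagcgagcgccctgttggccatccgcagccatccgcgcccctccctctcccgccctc

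A window of 250 bases before to 50 after the start was found for 41 of the 46 genes; SEC24D, ARF4, KDELR2, ERGIC1 and TMED9 have none in the table. Searched on both strands, UPRE stood in 10 of the 41 (24.4%), against 0.927% of 27305 genes with a window, and GASE in 17 (41.5%), against 3.95%. Either motif stood in 20 of the 41, and both in 7. The 27305 genes were not limited to those tested in these cells, and the shares among tested genes were not counted. The stretches of 30 bases around each UPRE are shown because they carry the motif that the 10 genes share; they were chosen after the values were seen. Capitals mark UPRE, read as CCACGTCA where it lies on the reverse strand, and each stretch runs in the direction of its gene.
SEC23A, chr14:39103221-39103250, minus strand: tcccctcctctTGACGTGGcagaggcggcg
SEC24A, chr5:134648595-134648624, plus strand: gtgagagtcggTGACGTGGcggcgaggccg
SEC16A, chr9:136484707-136484736, minus strand: tggccctggtgCCACGTCAgccggactgaa
ARF1, chr1:228082681-228082710, plus strand: cccggaggcgcTGACGTGGccgccgtcaga
GBF1, chr10:102245526-102245555, plus strand: gaggctagttaCCACGTCAgtgagctgaca
COPA, chr1:160343227-160343256, minus strand: gagagggtcgcTGACGTGGaggcgtccgaa
COPB1, chr11:14499841-14499870, minus strand: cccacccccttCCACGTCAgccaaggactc
COPB2, chr3:139389632-139389661, minus strand: tcccggaagttCCACGTCAgtcagtctgac
COPB2, chr3:139389825-139389854, minus strand: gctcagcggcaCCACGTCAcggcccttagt
KDELR3, chr22:38468039-38468068, plus strand: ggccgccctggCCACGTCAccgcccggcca
STX5, chr11:62832049-62832078, minus strand: ttacgtgtaggTGACGTGGccgcttccagt

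The CRE motif (TGACGTCA) stood in 0 of the 41 windows, against 2.25% of all genes. ERSE (CCAAT, 9 bases, CCACG) stood in 0, against 0.0916%, and ERSE-II (ATTGG, 1 base, CCACG) in 0, against 0.0696%. An androgen response element in its full palindromic form (AGAACA, 3 bases, TGTTCT) stood in 0 of the 41, against 0.00366% of the 27305 genes with a window. Only this exact form was searched. CRE, ERSE, ERSE-II and this element were so rare over all genes with a window that 0 of 41 tells nothing about them. Members with and without UPRE had close median log2 fold changes, 0.61 with and 0.61 without it in EV cells, and 0.87 with and 0.85 without it in siCtrl cells. For GASE the medians were 0.66 with and 0.56 without it in EV cells, and 0.87 with and 0.83 without it in siCtrl cells. SEC24D, which moved most in siCtrl cells, has no window, nor have ARF4, KDELR2, ERGIC1 and TMED9, so these genes stand in neither group. All of them were among the 12 members called at least 2-fold higher in siCtrl cells.

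**Figure D3:**
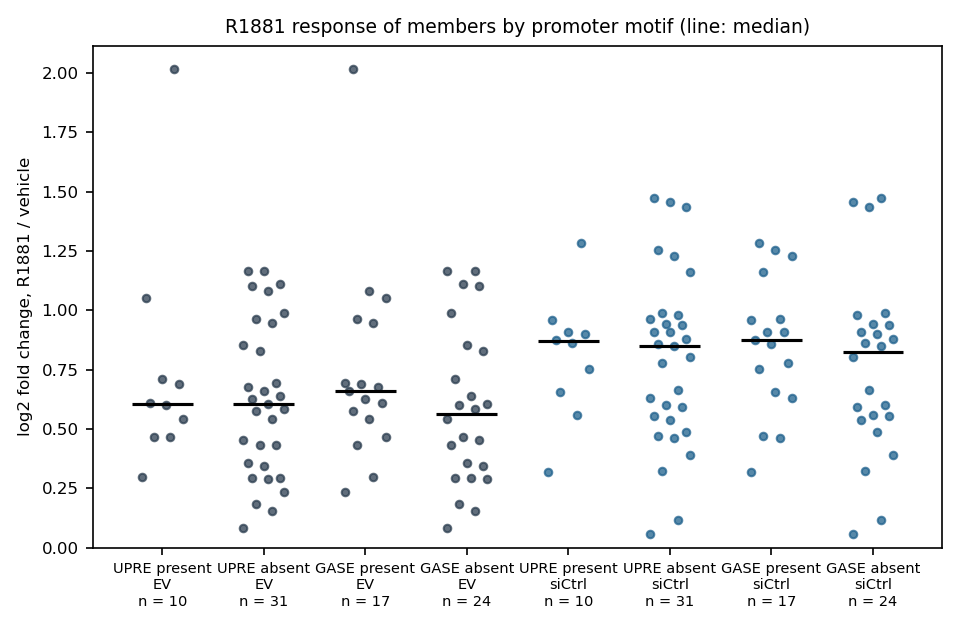
R1881 response (log2 fold change over vehicle) of the 41 genes with a promoter window, split by presence or absence of UPRE or GASE, in EV cells and in siCtrl cells. Each point is a gene and each line a median; the ranges overlap in all 4 splits, with UPRE medians of 0.61 and 0.61 in EV cells.

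Related genes often moved by unequal amounts. Ratios of counts within a library need no scaling, and 25 pairs from 7 families were compared with an exact two-sided permutation test of R1881 against vehicle labels within the 4 arms (160000 arrangements, smallest possible p 1.25e-05), adjusted over the 25 pairs. The ratio changed in 20 of them, by the same rule of adjusted p. Pairs of unrelated genes were not compared, so it is not known whether such a share is particular to related genes. The log2 ratio of SEC24C to SEC24D was 0.75, 0.87 and 0.94 with R1881 and 1.76, 1.75 and 1.67 with vehicle in the EV libraries, and 0.80, 0.72 and 0.72 with R1881 and 2.11, 1.86 and 2.29 with vehicle in the siCtrl libraries. Over the 4 arms it fell by 1.03 with R1881, a move toward SEC24D, and the ratios of SEC24A and SEC24B to SEC24D fell by 1.13 and 0.80 (adjusted p = 2.84e-05 each). Among the other SEC24 subunits the shifts were smaller, with -0.34 for SEC24A to SEC24B (adjusted p = 0.000723), 0.24 for SEC24B to SEC24C (adjusted p = 0.00107) and -0.0997 for SEC24A to SEC24C (adjusted p = 0.0221). These 3 shifts were uneven between arms. SEC24A to SEC24B changed by -0.057 in EV and -0.12 in P3 cells, with overlapping libraries in both, and by -0.52 in siCtrl and -0.65 in siWDR77 cells. SEC24B to SEC24C changed by 0.15 in EV, -0.023 in P3, 0.31 in siCtrl and 0.51 in siWDR77 cells, and SEC24A to SEC24C by 0.090 in EV, -0.14 in P3, -0.20 in siCtrl and -0.14 in siWDR77 cells.

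The SEC23A to SEC23B log2 ratio was -1.05, -0.94 and -0.95 with R1881 and -0.71, -0.67 and -0.54 with vehicle in EV cells, and -1.21, -1.22 and -1.23 with R1881 and -0.76, -0.69 and -0.62 with vehicle in siCtrl cells; it fell by 0.42 over the 4 arms. SAR1A to SAR1B fell by 0.57, and COPG1 to COPG2 rose by 0.92. The ratio of COPG1 to COPG2 was 2.95, 2.89 and 2.94 with R1881 and 2.12, 2.05 and 1.93 with vehicle in EV cells. KDELR1 to KDELR2 fell by 0.82 and KDELR1 to KDELR3 by 1.03, whereas KDELR2 to KDELR3 was not called over the 4 arms (-0.22, adjusted p = 0.164), which went opposite ways. Its change was -0.97 in EV cells, where the libraries with R1881 lay at 5.18 to 5.53 and those with vehicle at 6.17 to 6.51, and -0.28 in P3 cells, against 0.16 in siCtrl and 0.22 in siWDR77 cells. ERGIC2 to ERGIC3 rose by 1.02 and ERGIC1 to ERGIC3 by 0.80. Each of these called ratios had an adjusted p of 2.84e-05. ERGIC1 to ERGIC2 changed by -0.22 (adjusted p = 0.000723). Of the 10 pairs of p24 genes 6 were called, 4 of them those with TMED9, whose level relative to TMED2, TMED3, TMED7 and TMED10 rose by 0.38, 0.34, 0.36 and 0.28. TMED2 to TMED10 changed by -0.098, TMED7 to TMED10 changed by -0.079 (adjusted p = 0.0499; -0.25 in EV, -0.029 in P3, -0.058 in siCtrl and 0.021 in siWDR77 cells), and TMED2 to TMED3, TMED2 to TMED7, TMED3 to TMED7 and TMED3 to TMED10 were not called. In study 1 alone 14 pairs were called and in study 2 alone 18.

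**Figure D4:**
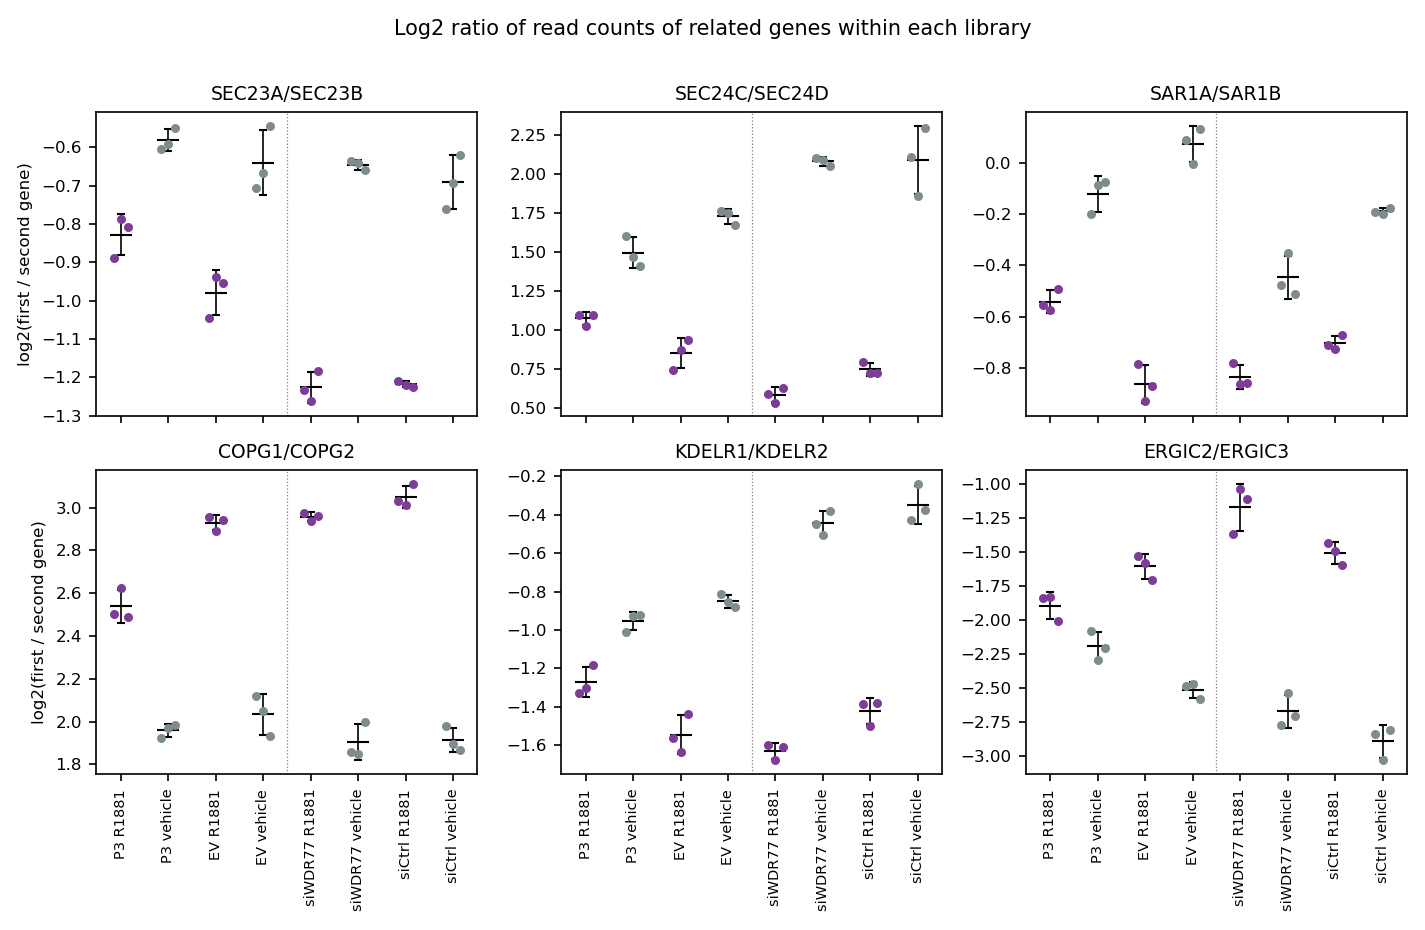
Log2 ratio of counts of related genes in each of the 24 libraries, for SEC23A to SEC23B, SEC24C to SEC24D, SAR1A to SAR1B, COPG1 to COPG2, KDELR1 to KDELR2 and ERGIC2 to ERGIC3, with R1881 left of vehicle in each arm. R1881 libraries lie below vehicle libraries for SEC23A to SEC23B, SEC24C to SEC24D, SAR1A to SAR1B and KDELR1 to KDELR2, and above them for COPG1 to COPG2 and ERGIC2 to ERGIC3.

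In P3 cells R1881 raised fewer of the genes and by less. Called higher were 41 of the 46 and 0 lower, where 13% of all genes tested were called higher and 7.96% lower, with a median log2 fold change of 0.33 against -0.020 over all genes. None of the 46 reached 2-fold, against 1.9% of all genes. SEC24D was highest at 0.98 ± 0.064 (adjusted p = 5.69e-16), followed by KDELR3 at 0.83 ± 0.18 (adjusted p = 0.000521), COPG1 at 0.65 (adjusted p = 3.14e-14) and TMED9 at 0.59 (adjusted p = 3.6e-09). Next were SEC24C at 0.56 (adjusted p = 1.41e-11), ARF4 at 0.56 (2.91e-11), KDELR2 at 0.55 (5.01e-11), SAR1B at 0.55 (2.92e-11), SEC24B at 0.54 (4.86e-09) and LMAN1 at 0.53 (7.47e-12). Not called were SEC23A at 0.12, SAR1A at 0.13, COPG2 at 0.075, BET1 at 0.14 and GOSR2 at 0.14. ERGIC3, not called in EV cells, was called at 0.15 ± 0.052 in P3 cells (adjusted p = 0.0289), and the difference between those responses was not called (0.070 ± 0.073, adjusted p = 0.551). The call of ERGIC3 in P3 cells was lost without each of P3_vehicle S5, P3_R1881 S20 and P3_R1881 S34 (0.11 to 0.13, adjusted p of 0.12 to 0.158), and that of TFG without each of 5 libraries of P3 cells, all but P3_vehicle S19. Also lost were the call of COPZ1 without P3_R1881 S20 or P3_R1881 S34 (adjusted p of 0.0795 and 0.0531) and that of YIPF5 without P3_vehicle S33 or P3_R1881 S20 (adjusted p of 0.0503 and 0.0511). Summed, the 46 genes took 0.941 to 0.96% of counts in P3 libraries with R1881 and 0.759 to 0.786% with vehicle.

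With R1881 present, 45 of the 46 genes were lower in P3 than in EV cells and 0 higher, where 18.9% of all genes were called lower and 18.1% higher. The exception was BET1, at -0.20 ± 0.10 (adjusted p = 0.117). For all 46, BET1 included, the 3 P3 libraries lay below the 3 EV libraries, against 22.6% of all genes. KDELR3 stood at 5.12, 5.48 and 4.82 CPM in P3 cells and 8.76, 9.1 and 11.3 CPM in EV cells, a log2 fold change of -0.92 ± 0.17 (adjusted p = 2.08e-05). SEC24D stood at 70.2, 72.9 and 72.1 CPM in P3 cells and 129, 122 and 116 CPM in EV cells, a log2 fold change of -0.77 ± 0.061 (adjusted p = 1.36e-13). LMAN1 stood at 291, 286 and 299.5 CPM in P3 cells and 457, 461 and 437 CPM in EV cells, a log2 fold change of -0.63 ± 0.048 (adjusted p = 4.2e-14). KDELR3 and LMAN1 are receptors and SEC24D is a coat subunit, and GTPases and coatomer were lower too. The log2 fold changes were -0.63 for SAR1B (adjusted p = 2.78e-13), -0.59 for COPG1 (4.12e-13), -0.58 for ARF4 (3.97e-12), -0.57 for KDELR2 (1.25e-11), -0.55 for SEC24A (3.57e-10), -0.55 for SEC24C (1.14e-11) and -0.54 for SURF4 (7.39e-12). By role, 14 of 14 COPII genes, 11 of 11 COPI genes, 10 of 10 receptors, 5 of 5 p24 genes and 5 of 6 SNARE and Yip/Yif genes were called lower. Without EV_R1881 S30 the calls of ERGIC3 (adjusted p = 0.0726) and YIF1A (adjusted p = 0.0706) were lost, and without P3_R1881 S6 that of YIF1A (adjusted p = 0.0787). Markers of other cell types summed to 32.7 to 37.2 CPM in P3 cells with R1881 and 23.6 to 27.8 CPM in EV cells with R1881, and the 11 luminal markers to 12831 to 13238 CPM in P3 cells and 19710 to 21317 CPM in EV cells. Of the luminal markers 7 were called lower in P3 cells, among them KRT8 at -1.05, KRT18 at -1.04 and TMPRSS2 at -0.88, and 2 were called higher. FKBP5 was lower at -1.27 (adjusted p = 1.6e-22). The part of these genes in the result was not tested.

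With vehicle the gap between P3 and EV cells was smaller. Called lower in P3 cells were 14 of the 46 and 0 higher, where 7.88% of all genes were called lower and 7.93% higher, and the median was -0.10 against -0.017 over all genes. YIPF5 stood at 52.6, 48.8 and 47.4 CPM in P3 cells and 65, 63.5 and 60.4 CPM in EV cells, a log2 fold change of -0.35 ± 0.062 (adjusted p = 0.000132). PREB changed by -0.28 ± 0.059 (adjusted p = 0.000808), SEC23B by -0.21 ± 0.051 (adjusted p = 0.00336) and ERGIC3 by -0.24 ± 0.052 (adjusted p = 0.00146). These 4 kept their calls under every setting tried. STX5 was at -0.26 (adjusted p = 0.00625), LMAN2 at -0.21 (0.00505), SAR1A at -0.20 (0.0084), TMED7 at -0.19 (0.0429), TMED9 at -0.19 (0.0405) and ARF4 at -0.19 (0.0125). KDELR1, TMED3, COPG1 and SEC23A completed the 14. The count was 6 without P3_vehicle S5, 9 without EV_vehicle S1 and 9 without EV_vehicle S29. Leaving out EV_vehicle S15 or P3_vehicle S33 also ended calls of TMED7 and SEC23A. With library totals 4 were called lower and 3 higher. Of the luminal markers, KLK2 at 1.33, TMPRSS2 at 0.65 and KLK3 at 0.54 (log2) were called higher in P3 cells with vehicle. FOLH1 at -0.26 and KRT8 at -0.20 were called lower, and the others were not called. FKBP5 was higher at 0.27 (adjusted p = 0.00028). The part of these genes in the result was not tested.

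**Figure D5:**
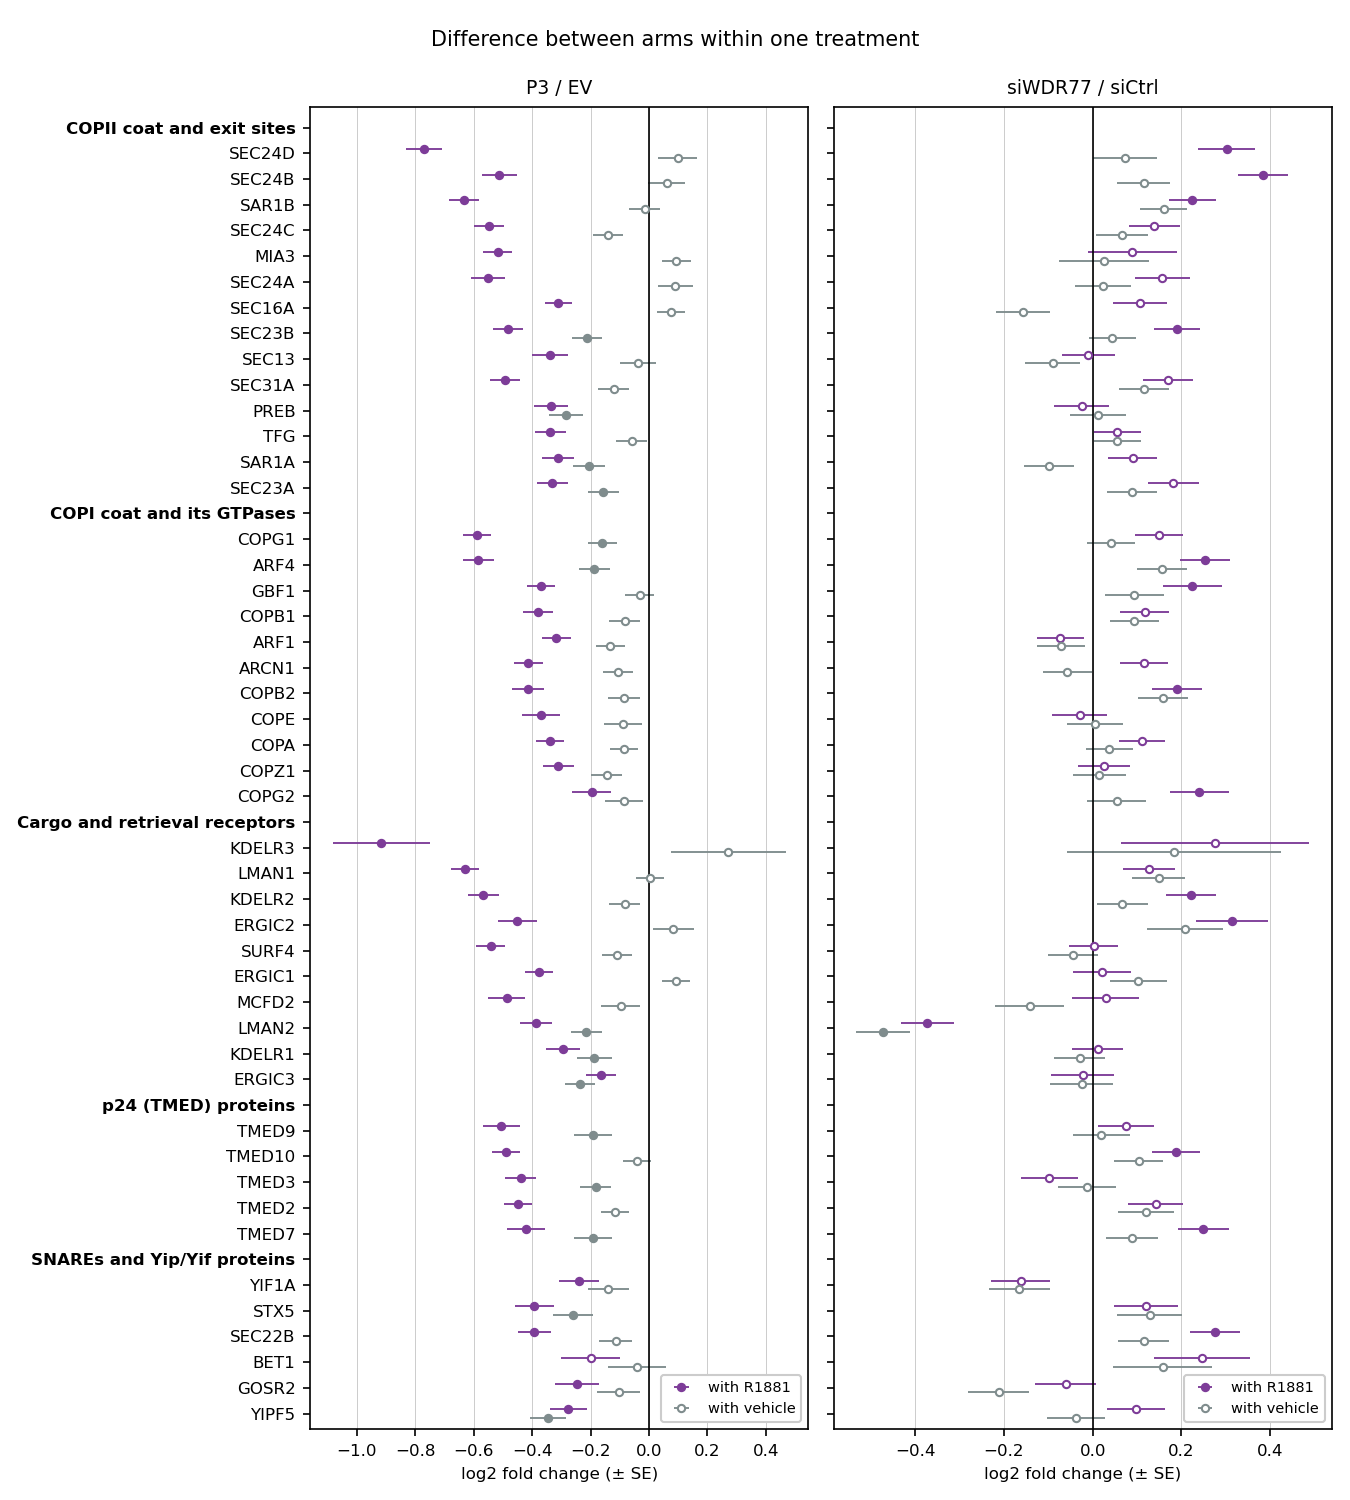
Log2 fold changes between arms for the 46 genes by role, P3 over EV (left) and siWDR77 over siCtrl (right), with R1881 and with vehicle; bars are 1 SE and filled points have an adjusted p under 0.05. With R1881 all 46 points of P3 over EV lie below 0, and LMAN2 is the 1 gene called lower in siWDR77 cells with either treatment.

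The test of the difference in R1881 response between P3 and EV cells called 31 of the 46 as smaller in P3 cells and 0 as larger, where 11.1% of all genes had a lower and 11.5% a higher response. The difference was -1.19 ± 0.26 for KDELR3 (adjusted p = 0.000481), -0.87 ± 0.091 for SEC24D (adjusted p = 4.79e-10), -0.64 ± 0.084 for SEC24A (adjusted p = 9.76e-08) and -0.63 ± 0.068 for LMAN1 (adjusted p = 1e-09), on the log2 scale. It was -0.62 for SAR1B (1.06e-08), -0.61 for MIA3 (4.31e-09), -0.57 for SEC24B (2.16e-06), -0.53 for ERGIC2 (4.06e-05), -0.48 for KDELR2 (2.88e-06) and -0.47 for ERGIC1 (7.58e-07). Called were 11 of 14 COPII genes, 8 of 11 COPI genes, 7 of 10 receptors, 4 of 5 p24 genes and 1 of 6 SNARE and Yip/Yif genes. The response in P3 cells was a median 0.517 of that in EV cells on the log2 scale over the 46 genes. It was the larger for 2 of them, and neither difference was called. ERGIC3 was at 0.15 in P3 cells and 0.083 in EV cells, and YIPF5 at 0.23 in P3 cells and 0.16 in EV cells. The share of all genes with a smaller response in P3 cells was not counted.

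R1881 raised nearly the whole apparatus in siWDR77 cells too. There 45 of the 46 were called higher with R1881 and 0 lower, where 27.7% of all genes were called higher and 25.5% lower, with a median log2 fold change of 0.93 against -0.016 over all genes, and 20 passed 2-fold, against 7.95% of all genes. SEC24D stood at 187, 184 and 165 CPM with R1881 and 27.1, 26.6 and 27 CPM with vehicle, a log2 fold change of 2.73 ± 0.070 (adjusted p = 2.11e-20). SEC24B followed at 1.74 (adjusted p = 4.16e-18), KDELR2 at 1.61 (1.28e-17), ERGIC2 at 1.56 (1.05e-13), TMED9 at 1.44 (1.02e-15), LMAN1 at 1.41 (4.22e-16), KDELR3 at 1.38 (1.19e-05), COPG1 at 1.36 (1.28e-16), ARF4 at 1.34 (4.17e-16) and SURF4 at 1.27 (1.09e-15). ERGIC3 was not called, at 0.062 ± 0.071 (adjusted p = 0.49), and COPG2 was called at 0.30 ± 0.066 (adjusted p = 4e-04). The difference in response between siWDR77 and siCtrl cells was called by edgeR for 0 of the 46 and 0 of 17893 genes (0%); 5 of the 46 and 1484 genes had an unadjusted p under 0.05, and DESeq2 called 0 of the 46 and 56 genes. The smallest adjusted p among the 46 was that of SEC24B, 0.33, at 0.27 ± 0.082. The fitted response was larger in siWDR77 than in siCtrl cells for 38 of the 46, with a median ratio of 1.09 over the 46 genes. The median difference in response was 0.083 for the 46 and 0.025 over all genes tested (log2). The share of all genes with a larger response was not counted.

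LMAN2 was the 1 gene of the 46 that differed between siWDR77 and siCtrl cells with vehicle, where 0.844% of all genes were called lower and 0.682% higher. It stood at 98.9, 96 and 102 CPM in siWDR77 cells and 146, 140.2 and 126 CPM in siCtrl cells, a log2 fold change of -0.47 ± 0.060 (adjusted p = 3.92e-05). With R1881 it stood at 161, 167 and 154 CPM in siWDR77 cells and 210.1, 213 and 202 CPM in siCtrl cells, -0.37 ± 0.059 (adjusted p = 0.000333), and siWDR77 libraries lay below siCtrl libraries in both. The call held under every setting tried.

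With R1881, 13 of the 46 were called higher in siWDR77 than in siCtrl cells, and LMAN2 lower, where 3.9% of all genes were called higher and 3.31% lower. SEC24B stood at 179.9, 179 and 178 CPM in siWDR77 cells and 135, 141 and 135 CPM in siCtrl cells, a log2 fold change of 0.38 ± 0.056 (adjusted p = 0.000139). ERGIC2 was at 0.31 (adjusted p = 0.018), SEC24D at 0.30 (0.00457), SEC22B at 0.28 (0.0039), ARF4 at 0.25 (0.00622), TMED7 at 0.25 (0.00805), COPG2 at 0.24 (0.0275), GBF1 at 0.22 (0.0376), SAR1B at 0.22 (0.0103) and KDELR2 at 0.22 (0.016). SEC23B, COPB2 and TMED10 completed the 13. The count was 4 without siWDR77_R1881 S24, 5 without siCtrl_R1881 S8, and 7 without each of siCtrl_R1881 S22, siCtrl_R1881 S36 and siWDR77_R1881 S10, ERGIC2 lost its call without siWDR77_R1881 S38 (adjusted p = 0.0739), and SEC24B, SEC24D, SEC22B and LMAN2 kept their calls under every setting tried.

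The 2 control arms differ in study, kind of transfection and culture, which cannot be told apart. Across the 46 genes their responses ranked alike (Pearson r = 0.849, Spearman rho = 0.89, across genes, which are not independent). The response was larger in siCtrl than in EV cells for 37 of the 46. The share of all genes with a larger response in siCtrl cells was not counted. In 1 fit of all 24 libraries the response of 21 was called larger in siCtrl cells and of 0 smaller. Of all 18999 genes, 10.7% were called larger and 6.04% smaller. The median difference was 0.21 for the 46 and 0.024 over all genes (log2). The difference was 0.68 ± 0.093 for SEC24D (adjusted p = 1.22e-06), 0.63 ± 0.087 for PREB (adjusted p = 1.3e-06), 0.50 for TMED9 (0.000229), 0.49 for ERGIC2 (0.00173), 0.44 for KDELR2 (9.66e-05), 0.39 for YIF1A (0.00622), 0.39 for ARF1 (0.000214), 0.38 for SEC24B (0.00129), 0.31 for ERGIC1 (0.00593) and 0.31 for ARF4 (0.00448). KDELR3 lay the other way at -0.72 ± 0.29 and was not called (adjusted p = 0.0844). Without siCtrl_vehicle S35 it was called smaller, at -0.95 (adjusted p = 0.0223). The count was 13 larger and 2 smaller, KDELR3 and SAR1B, without siCtrl_vehicle S35, and 8 larger and 2 smaller with library totals. Level and size of response showed next to no rank correlation across the 46 genes (Spearman rho of -0.0533 for the response in EV and -0.0173 in siCtrl cells). The level was CPM per kb averaged over the vehicle libraries of both control arms together.

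The wider secretory pathway was followed through lists of other genes. Of all genes tested, 24.9% were called higher and 26.4% lower with R1881 in EV cells, and 25.7% higher and 25.4% lower in siCtrl cells, and these shares stand behind the counts of every list. Of 33 tested genes of ER entry (translocon, signal peptidase, oligosaccharyltransferase), 27 were called higher and 2 lower with R1881 in EV cells, and 28 higher and 1 lower in siCtrl cells. SEC11C, a signal peptidase subunit, averaged 199 CPM with R1881 and 66.4 CPM with vehicle in EV cells (log2 fold change 1.58 ± 0.058, adjusted p = 3.23e-25). SSR3 and SSR1, of the translocon-associated complex, changed by 1.30 and 0.85, and the signal peptidase subunit SPCS3 by 1.32. The 2 lower in EV cells were SRP9 and SEC11A.

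Of 10 tested transcription factors and proteases of secretory capacity, 8 were called higher and 1, ATF4, lower in EV cells, and 9 higher and 0 lower in siCtrl cells. CREB3L4, a membrane-bound factor of the CREB3 family that is abundant in prostate, averaged 234 CPM with R1881 and 75.7 CPM with vehicle in EV cells, 1.63 ± 0.063 on the log2 scale (adjusted p = 5.09e-24), and changed by 2.204 ± 0.078 in siCtrl cells (adjusted p = 1.1e-16). CREB3L2, its relative, changed by 1.06 in EV and 1.74 in siCtrl cells, CREB3 by 0.92 and 0.92, and XBP1, a factor of the unfolded protein response, by 0.67 and 1.32. With R1881, the log2 fold change of CREB3L4 in P3 over EV cells was -0.67 (adjusted p = 6.94e-12), and 7 of the 10 were called lower there.

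Of 30 tested tethers, 17 were called higher and 3 lower in EV cells and 16 higher and 2 lower in siCtrl cells, among them the golgins GOLGB1 at 1.15 and GOLGA2 at 0.94, COG5 at 1.09 and the vesicle tether USO1 at 0.74 in EV cells. Of 17 other SNAREs and fusion factors, 11 were called higher and 2 lower in EV cells and 8 higher and 1 lower in siCtrl cells. With library totals these became 5 higher and 3 lower in EV cells and 5 and 5 in siCtrl cells, and their median in siCtrl cells turned to -0.0867. Of 17 other small GTPases and regulators, 11 were called higher and 1, ARF5, lower in EV cells (-0.32), and 11 higher and 2, ARF5 and ARFGEF1, lower in siCtrl cells (-0.18 and -0.36), with ARFGAP3, a GTPase activator of ARF1, at 1.12, RAB1A at 0.65 and RAB2A at 0.60 in EV cells. Of 18 other cargo receptors and cycling membrane proteins, 10 were called higher and 2 lower in EV cells and 12 higher and 2 lower in siCtrl cells, with YIPF1 at 1.21 and the p24 protein TMED5 at 0.92 in EV cells. Of 3 other COPII genes tested, MIA2, a partner of MIA3, was called higher in both control arms, at 0.99 in EV and 0.67 in siCtrl cells. SEC31B, the second form of SEC31, changed by -0.20 in EV cells (adjusted p = 0.546) and fell by 0.95 in siCtrl cells (adjusted p = 0.000351).

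Beyond the Golgi, of 30 tested genes of AP-1, clathrin, exocyst and secretory RAB traffic, 19 were called higher and 2 lower in EV cells and 20 higher and 2 lower in siCtrl cells. RAB27A, a GTPase of secretory granule release, averaged 34.9 CPM with R1881 and 8.45 CPM with vehicle in EV cells, 2.04 ± 0.11 on the log2 scale (adjusted p = 9.8e-20), and changed by 3.11 ± 0.11 in siCtrl cells. SYTL2, an effector of RAB27 proteins, went the other way at -1.12 ± 0.12 in EV cells (adjusted p = 1.66e-10) and -2.70 ± 0.19 in siCtrl cells (adjusted p = 1.28e-09). With R1881, the lists called lower in P3 than in EV cells were 28 of 33 for ER entry, 15 of 30 for tethers, 7 of 17 for SNAREs, 9 of 17 for small GTPases, 12 of 18 for cargo receptors and 17 of 30 for post-Golgi genes, where 18.9% of all genes were called lower and 18.1% higher. Called higher there were SRP9 of ER entry, at 0.14 (adjusted p = 0.0363), and 2 post-Golgi genes, the clathrin adaptor GGA1 at 0.39 (adjusted p = 5.91e-06) and SYTL2 at 0.35 (adjusted p = 0.0298), and 0 genes of the other 4 lists. Among the other COPII genes, SEC31B was higher in P3 than in EV cells with R1881, at 0.98 (adjusted p = 0.00189). MIA2 was lower, at -0.45 (adjusted p = 1.62e-05), and KLHL12 was not called, at -0.068 (adjusted p = 0.42).

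The 5 other genes whose level followed most closely the mean of the 44 members called in both control arms were PEA15, RPN1, SERP1, SSR3 and VMP1, with a Pearson r of 0.996 for the first 4 and 0.995 for VMP1 over 24 libraries, each centred on its study mean, among 17190 genes. RPN1 and SSR3 belong to ER entry, SERP1 protects proteins at the translocon, and VMP1 is a membrane protein of the ER. The likeness is a description of these libraries, which share the R1881 treatment.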

How the data were processed

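Poly(A) RNA-seq libraries were made from 24 cultures of LNCaP cells. The labels call them biological triplicates and say no more, so p-values measure the spread between these libraries. The authors deposited raw read counts per gene as whole numbers. The submitters' processing notes name bcl2fastq 2.20 for demultiplexing, the aligner STAR 2.7.9a, the counter featureCounts (Subread 1.6.4) and the build GRCh38.p7. The strand setting of the counting, its treatment of reads with several alignments and its annotation release are none of them given in the sources used here, so genes that overlap or have near-identical copies are uncertain. Total counts per library were 16665915 to 24260446. Reads carry no molecular identifiers.

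From these counts, log2 fold changes with their SE came from edgeR 4.0.16 (R 4.3.3), by the robust quasi-likelihood test with TMM scaling, the filterByExpr filter and 1 mean per group. Each study was fitted alone (12 libraries, with 17772 genes in study 1 and 17893 in study 2), and the difference between the control arms used all 24 libraries (18999 genes). The threshold was an adjusted p (Benjamini-Hochberg, over all genes of the fit) under 0.05. Coordinates and exon lengths came from GENCODE 29 (GRCh38), which holds 58337 of the feature IDs and all 46 members; 140 symbols stand on more than 1 feature, and each ID was tested by itself. Promoters came from a RefSeq table (GRCh38.p14), in which 9 members have more than 1 window, and a member counts as holding a motif where any of its windows does. The members, lists and tests were chosen with earlier results of these data known. The genes named were all 46 members, up to 10 of the largest called changes per direction in each comparison, every member of the families compared as ratios, members called in 1 control arm only, up to 4 genes per pathway list by adjusted p in the control arms, and the 5 non-members most alike in pattern. Alternatives were RLE size factors, library totals without a scaling factor, no filter on low counts, DESeq2 1.42.0, all 24 libraries in 1 fit, a block by sample number run, and each library left out in turn; single studies for the ratios were added after seeing the data. Scripts were tested on simulated data.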

Additional observations from a re-analysis of the deposited data

Results flagged for a closer look

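A smaller R1881 response in P3 than in EV cells, by the test of the difference itself, was called for 31 of the 46 genes. Of all 17772 genes tested, 11.1% were called with a lower and 11.5% with a higher response. The 10 largest differences in response (P3 minus EV, log2) were -1.187 for KDELR3, -0.8687 for SEC24D, -0.6402 for SEC24A, -0.6315 for LMAN1, -0.6182 for SAR1B, -0.6108 for MIA3, -0.5727 for SEC24B, -0.5336 for ERGIC2, -0.4842 for KDELR2 and -0.4688 for ERGIC1.

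A larger response in siCtrl than in EV cells was called by the same kind of test for 21 of the 46 genes. Of all 18999 genes tested, 10.7% were called larger and 6.04% smaller. The 10 largest differences (siCtrl minus EV, log2) were 0.6772 for SEC24D, 0.6349 for PREB, 0.4965 for TMED9, 0.4869 for ERGIC2, 0.443 for KDELR2, 0.3891 for YIF1A, 0.3862 for ARF1, 0.3828 for SEC24B, 0.3133 for ERGIC1 and 0.3095 for ARF4. The control arms come from separate studies, so the kind of transfection and the culture cannot be told apart from the arm.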

How the results depend on the processing

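Of 3903 values recomputed for called members, 3702 kept their direction and call, 200 kept their direction and lost the call, and 1 reversed. The reversed value was that of YIPF5 in EV cells with R1881 against vehicle, -0.0128 under library totals with no scaling factor. Under library totals 1 member was called lower with R1881 in siCtrl and 1 in siWDR77 cells, 3 were called higher and 4 lower in P3 than in EV cells with vehicle, and 8 responses were called larger and 2 smaller in siCtrl than in EV cells; these totals move the median of all genes. With DESeq2 1 member was called higher in siWDR77 than in siCtrl cells with vehicle, and 1 response was called smaller in siCtrl than in EV cells; the cause was not tested. With 1 library left out, the members called lower in P3 than in EV cells with vehicle numbered 6 to 16, those called higher in siWDR77 than in siCtrl cells with R1881 numbered 4 to 13, and the responses called larger in siCtrl than in EV cells numbered 13 to 21 and smaller 0 to 2. Called under every alternative were 39 of 45 members in EV cells, 36 of 41 in P3 cells, 41 of 44 in siCtrl cells and 42 of 45 in siWDR77 cells (R1881 against vehicle), and 39 of 45 for P3 against EV with R1881. A replicate block by sample number run gave 45, 41, 44 and 45 calls in EV, P3, siCtrl and siWDR77 cells. It gave 18 lower in P3 than in EV cells with vehicle, 45 lower with R1881, and 34 smaller responses. Over all genes the block moved the calls for P3 against EV with vehicle from 2809 to 3719. Deviations from the group mean had a median r of 0.0439 in study 1 and 0.0564 in study 2 between libraries of the same run. Between libraries of different runs the medians were -0.0283 and -0.0224. The labels do not say whether the numbers pair libraries. Depth limits KDELR3 most, which stood at 1.76 to 11.3 CPM in EV and siCtrl cells.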
